A study of Homo sapiens with 9 samples.

Results

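The comparison set AC16 cells treated with CDDO-Me for 24 h against cells kept in vehicle, across all genes. It rested on 6 of the 9 samples of the series: 3 samples treated with 100 nM CDDO-Me for 24 h, and 3 samples kept in 0.1% DMSO for 72 h. The other 3 samples, treated with 100 nM CDDO-Me for 72 h, entered the fit for the estimate of spread. AC16 is an established, proliferating human line made by fusing adult ventricular heart cells with SV40-transformed fibroblasts. All samples came from this line and the same medium with serum, with no other agent in the labels. No vehicle sample of 24 h was analysed here, so effects of treatment and of culture time cannot be told apart, and every difference below carries both. Nothing in the labels tells whether the replicates were grown separately; p-values rest on the scatter among these samples, and that scatter may be technical only.

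The compound CDDO-Me, also named bardoxolone methyl, modifies cysteines of KEAP1 and thereby frees the transcription factor NRF2, which switches on antioxidant, glutathione and NADPH-making enzymes. The compound also reacts with other proteins, and the series' title names only NRF2, so the genes described here are mainly those outside a list of known NRF2 targets. Some of them belong to programmes that stromal and muscle cells share. Serum response factor (SRF) binds a short sequence called the CArG box, with myocardin-family cofactors, and drives genes of actin and smooth muscle contraction. The cofactors YAP and TAZ act with TEAD factors on matricellular genes, while MAP kinases induce both immediate early transcription factors and the phosphatases that turn the kinases off again.

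Many transcripts of contractile heart muscle were absent, whereas others of the same list of 30 markers were present. MYH6, MYH7, MYL2, MYL3, MYBPC3, NKX2-5, HAND1, RYR2, PLN and KCNQ1 had no read in any of the 6 samples, and TNNT2 had 9 reads over the 3 DMSO samples and 13 over the 3 treated ones. The cardiac transcription factors GATA4 and GATA6 were present, at means of 25.3 and 48.3 CPM (counts scaled per 1e6 of the library after size scaling) in DMSO, and TBX20 was low, at 2.18 CPM. The sarcomeric protein gene TTN had a mean of 6.15 CPM in DMSO, the calcium channel gene CACNA1C 16.8 CPM, and the calcium pump gene ATP2A2, which many tissues express, 628 CPM. Fibroblast markers were all detected, and the 11 together summed to 2905 to 2958 CPM in DMSO and 2673 to 2987 CPM at 24 h. Immune markers summed to 4.24 to 4.98 and 3.29 to 5.47 CPM, with CD3E at 0. Endothelial markers summed to 20.3 to 25.5 and 21.3 to 24.3 CPM, with EMCN at 0; TEK was the most abundant, at means of 12.5 CPM in DMSO and 9.51 CPM at 24 h.

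Total counts ran from 19382833 to 20570568 in the DMSO samples and from 16898977 to 27910031 in the 24 h samples. CDDO-Me 24 h replicate 3, the deepest, stood apart from its group. Its biological coefficient of variation, the relative spread of counts beyond sampling noise, was 20.9% against replicate 1 and 19.8% against replicate 2, whereas replicates 1 and 2 differed by 6.39%. DMSO replicate 1 lay 12.1 and 13.8% from its partners, which differed by 7.78%. Over the 8304 genes with an average log2 CPM of at least 4, replicate 3 had a median absolute log2 difference of 0.18 from the mean of replicates 1 and 2, 0.13 from the DMSO mean and 0.12 from the mean of the CDDO-Me 72 h samples. By this measure it lay further from the samples that share its label than from either 72 h group. Results are therefore given with it and, where the value changes, without it.

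Of 14965 genes tested, 321 passed an adjusted p of 0.05 (edgeR quasi-likelihood, Benjamini-Hochberg), which is 2.15% of them. The 145 genes that were higher made up 0.969% and the 176 that were lower 1.18%. Of 64 tested members of the NRF2 target list 35 were higher and none was lower, among them NQO1, the NAD(P)H quinone reductase, with 433, 419.5 and 495 CPM in DMSO and 1686, 1782 and 2169 CPM at 24 h. The 35 became 18 without DMSO replicate 2, 48 without 24 h replicate 3 and 16 with 6 samples in the fit, with none lower in these fits. That left 110 higher genes and 176 lower genes outside the list, of which 100 and 169 were protein-coding. Their median log2 fold changes were 0.68 and -0.57, and 31 higher and 25 lower genes differed at least 2-fold. In all 286 of them the 3 treated samples lay on 1 side of the 3 DMSO samples, as did 13.5% of all genes tested (6.73% with the treated samples higher, 6.74% lower). All 176 lower genes were outside the list, and 59 of them belonged to one of the other 55 gene lists, against 27 of the 110 higher genes.

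The counts depended on single samples. Without CDDO-Me 24 h replicate 3, 874 genes were higher and 783 lower (5.71% and 5.11% of 15311 tested). These held 109 of the 110 higher and 173 of the 176 lower genes outside the NRF2 list. They also held 711 further higher and 606 further lower genes outside it, and in 558 and 402 of these replicate 3 overlapped the DMSO samples. Without DMSO replicate 2 the counts were 57 and 77, without DMSO replicate 3 they were 89 and 142, without 24 h replicate 2 they were 104 and 102, and without 72 h replicate 3 they were 100 and 117. Of the genes outside the list, 31 higher and 62 lower genes were called in all 9 fits that each left out 1 sample. The genes said below to have risen or fallen are of this kind unless the sentence says which omission ended the call. List counts below are to be read beside the shares of all genes tested, 0.969% higher and 1.18% lower. For counts without 24 h replicate 3 those shares are 5.71% and 5.11%. With the 6 samples alone in the fit, which leaves fewer degrees of freedom, 27 and 57 of the genes outside the list were called. The CDDO-Me 72 h samples, left out there, differed among themselves by a biological coefficient of variation of 2.72, 3.06 and 3.31%. They were thus closer together than the samples of either group compared. Their scatter entered the spread of the main fit, and what part this had in the counts was not tested.

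**Figure D1:**
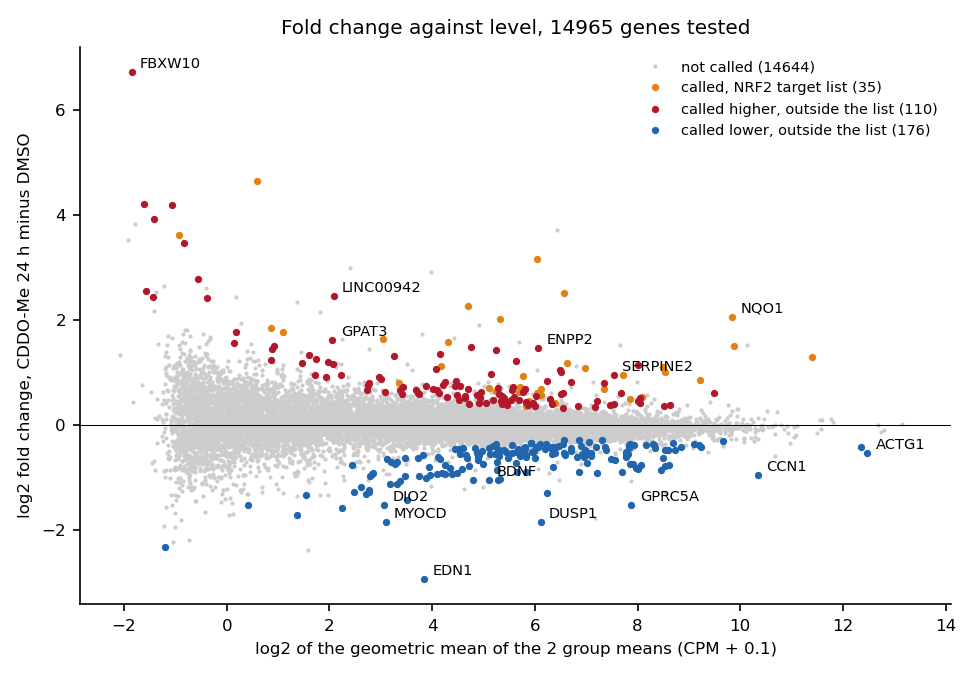
Log2 fold change, CDDO-Me 24 h minus DMSO, against level (log2 CPM) for 14965 genes, 1 point per gene. Called genes of the NRF2 list (35) are orange and all lie above 0; called genes outside it are red (110 higher) and blue (176 lower), and EDN1 is the lowest of the labelled ones at -2.92. FBXW10 had no read in DMSO, so its plotted value depends on the count added in the fit and is no measure of size.

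Vasoactive signalling genes held the lowest fold change of the named genes. EDN1 (chr6:12290363-12297194), which encodes the vasoconstrictor peptide endothelin-1, measured 23.7, 43.6 and 50.3 CPM in the DMSO samples, in replicate order 1 to 3, and 4.6, 5.67 and 5.23 CPM in the 24 h samples. All 3 treated samples, replicate 3 among them, were well under the lowest DMSO sample. It fell by 2.92 on the log2 scale (SE 0.24, adjusted p = 8.0e-05). OXTR, the oxytocin receptor, measured 169, 93.1 and 89.8 CPM in DMSO and 54, 47 and 42.7 CPM at 24 h (log2 fold change -1.29 ± 0.23, adjusted p = 0.024). Here DMSO replicate 1 was high, and the call ended without 24 h replicate 1 (0.079), 24 h replicate 2 (0.078), 24 h replicate 3 (0.063) or 72 h replicate 3 (0.050). These were the 2 genes of 16 tested in the endothelin and vasoactive peptide list that fell, and the count was 1 without 24 h replicate 2 or 72 h replicate 3, or with 6 samples in the fit. The list had 2 higher and 2 lower members without 24 h replicate 3.

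Single genes of other signalling lists fell. GPRC5A, an orphan receptor induced by retinoic acid, measured 341, 436 and 417 CPM in DMSO and 164, 147 and 107 CPM at 24 h (log2 fold change -1.52 ± 0.14, adjusted p = 8.5e-05), with treated replicate 3 the lowest. RGS4, which speeds the shut-off of Gi and Gq proteins, measured 277, 267 and 299.6 CPM and 160.4, 175 and 122 CPM (log2 fold change -0.89 ± 0.11, adjusted p = 4.7e-04), again with replicate 3 lowest. Each was the 1 member called in its list, of 36 other G protein-coupled receptors and 11 RGS genes, and 1 of 36 (2.78%) is near the 2.15% of all genes tested. Without 24 h replicate 3 the receptor list had 2 higher and 5 lower members, and without 24 h replicate 2 it had 2 lower ones; the RGS list had 2 higher and 1 lower without 24 h replicate 3. RASGRP3, an exchange factor that activates Ras, measured 17.7, 16.9 and 20.5 CPM and 8.09, 7.7 and 4.93 CPM (log2 fold change -1.42 ± 0.17, adjusted p = 4.4e-04).

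Among inhibitors that act in feedback on MAP kinases, 4 dual-specificity phosphatases fell. DUSP1 (chr5:172768090-172771195), which acts on p38, JNK and ERK, measured 107, 142 and 145 CPM in DMSO and 32.3, 30.3 and 46.8 CPM at 24 h. The groups were far apart, and treated replicate 3 was the nearest to DMSO. Its log2 fold change was -1.84 ± 0.16 (adjusted p = 8.5e-05), and -2.07 ± 0.11 without replicate 3. DUSP2 measured 8.06, 9.84 and 12.9 CPM against 3.96, 3.65 and 4.68 CPM (-1.32 ± 0.19, adjusted p = 0.0019). DUSP10, which prefers p38 and JNK, measured 25, 20.9 and 18.7 CPM against 10.8, 11.6 and 11.1 CPM (-0.94 ± 0.13, adjusted p = 0.0010). DUSP8 measured 11.4, 10.5 and 6.77 CPM against 3.96, 4.56 and 5.96 CPM (-0.97 ± 0.20, adjusted p = 0.021), a narrow gap between DMSO replicate 3 and treated replicate 3, and the call ended without DMSO replicate 1 (0.071), DMSO replicate 2 (0.12), 24 h replicate 1 (0.077) or 24 h replicate 2 (0.089). These were 4 of 18 tested members of the MAP kinase feedback list, none was higher, and 6 were lower without 24 h replicate 3 and 3 (not DUSP8) with 6 samples in the fit. Among all genes tested 1.18% were lower, and 5.11% without 24 h replicate 3. The list's median log2 fold change was -0.18, beside 0.01 over all genes tested. By sample its median, relative to the DMSO mean, was -0.123, 0.126 and -0.024 in DMSO and -0.119, -0.299 and -0.090 at 24 h, so the groups overlapped.

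The DUSP1 promoter is shown because it carries a full cAMP response element, TGACGTCA, in capitals at -125 to -118 from the RefSeq start, with a match to TGACNNNGC on the opposite strand (capitals at -115 to -107). The 250 bases before the start (RefSeq, GRCh38.p14) read 5′ to 3′ as follows.
DUSP1, chr5:172771196-172771445, - strand: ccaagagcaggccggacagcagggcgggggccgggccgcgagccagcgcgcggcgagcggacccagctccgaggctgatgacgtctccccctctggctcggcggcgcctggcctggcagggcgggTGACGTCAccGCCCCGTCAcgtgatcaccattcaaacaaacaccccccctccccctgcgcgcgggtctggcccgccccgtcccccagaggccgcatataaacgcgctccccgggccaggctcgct
Searched on both strands, TGACGTCA occurred in 6 of 139 promoters of genes called lower (4.32%), in 2.94% of the 10983 promoters of tested genes and in 1.77% of all 27305 promoters in the table. A match of letters is a description of the sequence only.

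Immediate early transcription factors, the genes that MAP kinases and SRF switch on within minutes of a stimulus, included 4 that fell of 21 tested and none that rose. The lower share of all genes tested was 1.18%, or 5.11% without 24 h replicate 3. JUN measured 278, 390.3 and 378 CPM in DMSO and 229, 205 and 188 CPM at 24 h (log2 fold change -0.75 ± 0.11, adjusted p = 0.0026). IER3 measured 249.9, 249 and 292 CPM and 183, 155 and 206 CPM (-0.54 ± 0.10, adjusted p = 0.0088). In both, all 3 treated samples were under the lowest DMSO sample. IER2 (-0.62) and FOSL2 (-0.37) were also called, but IER2 lost its call without DMSO replicate 2, DMSO replicate 3 or 24 h replicate 2 (adjusted p = 0.054 to 0.095) and FOSL2 without DMSO replicate 2 or 24 h replicate 2 (adjusted p = 0.081 to 0.11). Leaving out DMSO replicate 1 gave 9 lower members of this list, leaving out DMSO replicate 2 or 24 h replicate 2 gave 2, and leaving out 24 h replicate 3 gave 6. With 6 samples in the fit JUN was called and the other 3 were not. Of 14 Kruppel-like factors 2 fell, or 1 without DMSO replicate 2 or with 6 samples. KLF6 measured 155, 214 and 241 CPM in DMSO and 95.2, 99.4 and 129 CPM at 24 h (-0.92 ± 0.15, adjusted p = 0.0085), with treated replicate 3 nearest to DMSO. The other was KLF12 (-0.66).

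Some genes of actin, contraction and adhesion fell, and most did not pass the test. Over the 91 tested members of 4 lists (smooth muscle contraction, SRF targets of the actin cytoskeleton, integrins and focal adhesion, YAP and TEAD targets), 16 fell (17.6%) and none rose. Among all genes tested 1.18% were lower and 0.969% higher. The lists were chosen with earlier results of these data known. Without 24 h replicate 3, 39 of the 91 were lower and none was higher, beside 5.11% lower of all genes in that fit. Without DMSO replicate 1 as well, the adhesion list alone had 6 higher and 10 lower members. The smooth muscle, SRF actin and YAP lists then had 15, 11 and 13 lower and none higher. Over all genes 1639 were lower and 1825 higher in that fit. With 6 samples in the fit, 6 of the 16 were called (MYOCD, ACTA2, FHL2, PDLIM5, CCN1 and DLC1). The other 10 (SRF, CNN2, TPM1, MYL9, CALD1, ACTG1, MYH9, FILIP1L, LIMA1 and CRIM1) were not. In 30 of the 91 all treated samples were under all DMSO samples, which held for 6.74% of all genes tested. The largest share was in the smooth muscle list, with 7 of 20 lower (4 without DMSO replicate 2, 2 with 6 samples) and a median log2 fold change of -0.44. By sample that list's median, relative to the DMSO mean, was -0.39, -0.54 and -0.33 in treated replicates 1 to 3, so replicate 3 lay with the others.

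MYOCD, the SRF cofactor that drives smooth muscle genes, measured 20.3, 15.1 and 12.3 CPM in DMSO and 5.36, 4.81 and 3.22 CPM at 24 h. Its log2 fold change was -1.85 ± 0.22 (adjusted p = 3.1e-04), and treated replicate 3 was the lowest sample. ACTA2, smooth muscle alpha-actin, measured 13.8, 7.86 and 9.05 CPM and 4.25, 5.01 and 3.8 CPM (-1.24 ± 0.24, adjusted p = 0.012), with DMSO replicate 1 the highest. TPM1, a tropomyosin that lies along actin filaments, measured 638, 423 and 469.7 CPM and 274, 288 and 348 CPM (-0.75 ± 0.13, adjusted p = 0.011), and its call ended without 24 h replicate 1 (0.051). SRF itself measured 125, 126 and 112 CPM and 93.4, 82 and 92.2 CPM (-0.44 ± 0.08, adjusted p = 0.0085), a small difference between 2 groups that did not overlap, and its call ended without DMSO replicate 2 (0.055). CNN2, calponin 2, measured 472, 484 and 407 CPM and 366, 313 and 300.2 CPM (-0.48 ± 0.09, adjusted p = 0.011) and lost its call without DMSO replicate 2 (0.070). The other 2 called members were MYL9 and CALD1, at -0.48 and -0.37; MYL9 lost its call without DMSO replicate 2 (0.062) or 24 h replicate 2 (0.075) and CALD1 without DMSO replicate 1 (0.053), DMSO replicate 3 (0.059) or 24 h replicate 1 (0.066).

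FHL2, a LIM protein that binds SRF and is itself an SRF target, measured 262, 219.7 and 232 CPM in DMSO and 146, 146 and 156 CPM at 24 h. All treated samples lay close together and under DMSO, and the log2 fold change was -0.67 ± 0.08 (adjusted p = 3.0e-04). ACTG1, cytoplasmic gamma-actin, was the most abundant gene of this group, with 8161, 6363 and 6060.5 CPM and 4598, 4128 and 5515 CPM (-0.53 ± 0.12, adjusted p = 0.034). Its reads can be shared with near-identical actin genes and pseudogenes, so the value is uncertain. The SRF actin list had 4 lower of 19, of which FHL2 was called in all 9 fits. ACTG1, MYH9 (-0.41) and FILIP1L (-0.50) were not, and the list's count was 2 without DMSO replicate 1 or 72 h replicate 1. It was 1 without DMSO replicate 2, 24 h replicates 1 or 2, or 72 h replicates 2 or 3, and 11 without 24 h replicate 3. In the adhesion list PDLIM5 (-0.53) and LIMA1 (-0.47), both actin-binding LIM proteins, fell out of 29 members, and the count was 4 without DMSO replicate 3 and 7 without 24 h replicate 3; 1 member was higher without DMSO replicate 1.

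Among 23 YAP and TEAD targets 3 fell, none rose, and 12 fell without 24 h replicate 3. CCN1 (CYR61, chr1:85580761-85583962), a secreted matricellular protein, measured 1641, 1849 and 1919.9 CPM in DMSO and 968, 892 and 956 CPM at 24 h. The treated samples lay close together, and the log2 fold change was -0.94 ± 0.08 (adjusted p = 2.0e-05). DLC1, a GTPase-activating protein for RhoA, measured 257, 331 and 310.2 CPM and 182, 166 and 194 CPM (-0.73 ± 0.09, adjusted p = 6.4e-04). CRIM1 (-0.36) was called with all samples and not without DMSO replicate 1, DMSO replicate 2, 24 h replicate 1, 24 h replicate 2, 72 h replicate 1, 72 h replicate 2 or 72 h replicate 3 (adjusted p = 0.081 to 0.14). CCN2 (CTGF), which is often read together with CCN1, measured 410.3, 641 and 673 CPM and 171, 169 and 374 CPM and was not called (-1.27 ± 0.34, adjusted p = 0.15). In CCN2 treated replicate 3 lay just under DMSO replicate 1, and without it the log2 fold change was -1.76 ± 0.21 (adjusted p = 0.0029).

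**Figure D2:**
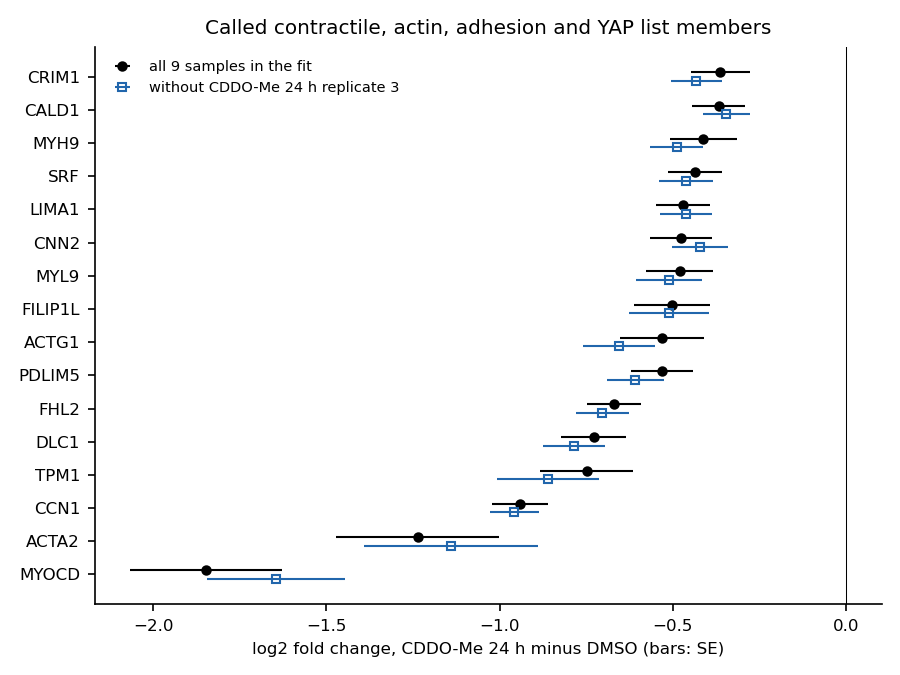
Log2 fold change, CDDO-Me 24 h minus DMSO, of the 16 called members of the contractile, actin, adhesion and YAP lists (vertical axis); bars are SE. Black circles are from all 9 samples in the fit and blue squares from the fit without CDDO-Me 24 h replicate 3; all 16 lie below 0 in both, from MYOCD at -1.85 to CALD1 and CRIM1, at -0.37 and -0.36.

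CArG boxes were looked for in the 250 bases before the RefSeq start, on both strands. They were in 12 of 139 promoters of genes called lower (8.63%), in 0 of 81 promoters of genes called higher outside the NRF2 list, in 0.974% of promoters of tested genes and in 1.14% of all promoters in the table. Of the 107 tested genes with such a box 12 were lower (11.2%) and none was higher, whereas 139 (1.27%) of the 10983 tested genes with a promoter were lower. Without 24 h replicate 3, 18 of the 107 were lower and 6 higher, beside 5.11% lower and 5.71% higher of all genes in that fit. Without 24 h replicate 1 or 2, 1 gene was higher. The counts were 16 lower and 2 higher by DESeq2, and 22 and 4 by limma-voom with sample weights. They were 26 and 13 without both 24 h replicate 3 and DMSO replicate 1. The single direction did not hold in these fits. The count of lower genes was 3 without DMSO replicate 2 or with 6 samples in the fit, and 4 with replicate number as a block. It was 7 without 24 h replicate 1 or 2, and 8 without DMSO replicate 3 or 72 h replicate 2 or 3. Over all 107 genes the median log2 fold change was -0.05, beside 0.01 over all genes tested.

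The 60 bases around the box are shown for the 5 of these 12 genes that were called in at least 8 of the 9 fits leaving out 1 sample. They were chosen after the matches and calls were seen. The box is in capitals, each window reads 5′ to 3′ on the gene's strand, and sequences and positions are from RefSeq (GRCh38.p14).
NR2F1, chr5:93583104-93583163, + strand: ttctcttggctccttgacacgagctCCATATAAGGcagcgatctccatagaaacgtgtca
FHL2, chr2:105438580-105438639, - strand: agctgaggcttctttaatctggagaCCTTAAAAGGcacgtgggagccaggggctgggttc
MYO1E, chr15:59372872-59372931, - strand: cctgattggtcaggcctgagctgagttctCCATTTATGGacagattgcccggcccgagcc
CNN2, chr19:1026494-1026553, + strand: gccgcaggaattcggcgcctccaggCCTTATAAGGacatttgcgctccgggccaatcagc
SRF, chr6:43171209-43171268, + strand: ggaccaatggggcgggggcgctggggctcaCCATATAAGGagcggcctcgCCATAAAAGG
The SRF window holds 2 boxes, the first at -30 to -21 from the start. In NR2F1, FHL2 and CNN2 the box began at -93, -101 and -89 from the start, and in MYO1E at -31. MYO1E, a class I myosin that links actin to membranes, was in no list and had a log2 fold change of -0.53 ± 0.08 (adjusted p = 0.0031). The other 7 genes with a box were RND3, RCAN1, EBF3, ACTG1, FILIP1L, GBP1 and PRUNE2, with log2 fold changes from -0.84 to -0.40.

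Of 34 tested genes of TGF-beta ligands and feedback, 4 fell and none rose. Beside this, 1.18% of all genes tested were lower, and 5.11% without 24 h replicate 3. TGFB2, a ligand of the TGF-beta receptors, measured 66.1, 71.4 and 67.9 CPM in DMSO and 38, 37.1 and 35 CPM at 24 h, with little spread in either group (log2 fold change -0.90 ± 0.08, adjusted p = 2.4e-05). INHBA, the subunit of activin A, measured 42.4, 42.6 and 37.6 CPM and 23.6, 26.3 and 23.5 CPM (-0.74 ± 0.10, adjusted p = 9.2e-04). SMAD3, which carries the signal of both to the nucleus, had a log2 fold change of -0.59 ± 0.11 (adjusted p = 0.0085), and SKIL, its repressor, -0.61 ± 0.11 (adjusted p = 0.0085). The SMAD3 call ended without DMSO replicate 2 (0.064) and the SKIL call without DMSO replicate 2 (0.062). The list's median was -0.45. Without 24 h replicate 3, 10 were lower and 1 was higher, and with 6 samples in the fit TGFB2 and INHBA were called and SMAD3 and SKIL were not.

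DKK1, a secreted inhibitor of Wnt signalling, measured 475, 482 and 511 CPM in DMSO and 291, 302 and 259.8 CPM at 24 h (-0.78 ± 0.08, adjusted p = 7.8e-05). The 3 treated samples were all clearly lower, with replicate 3 lowest. It was the 1 called member of 25 Wnt pathway genes, and 2 were lower without DMSO replicate 1 or 3 and 3 without 24 h replicate 3. A single call in 25 (4%) is near the 2.15% of all genes tested. The list of other growth factors and receptors went both ways, with 1 higher (ANGPT1) and 2 lower (BDNF and MET) of 32, and 5 higher and 8 lower without 24 h replicate 3. BDNF, a neurotrophin, measured 54.6, 45.8 and 46.9 CPM and 22.5, 24.5 and 24.7 CPM (-1.04 ± 0.10, adjusted p = 5.5e-05). MET, the receptor of hepatocyte growth factor, had a log2 fold change of -0.55 ± 0.11 (adjusted p = 0.017), a call that ended without 24 h replicate 1 (0.071) or 24 h replicate 2 (0.058). Cytokines and chemokines also had 2 lower and 1 higher members, of 23. LIF, a cytokine of the interleukin-6 family, measured 37.2, 31.6 and 26.9 CPM and 21.2, 18.5 and 13.9 CPM (-0.84 ± 0.15, adjusted p = 0.0085). IL1B, the inflammatory cytokine, was at a low level of 6.56, 8.54 and 10.2 CPM and 5.12, 3.19 and 2.34 CPM (-1.27 ± 0.27, adjusted p = 0.020), and its call ended without DMSO replicate 2 (0.095), DMSO replicate 3 (0.10) or 24 h replicate 2 (0.085). The higher one was the interleukin-1 receptor IL1R1 (0.55 ± 0.12, adjusted p = 0.030), whose call held in 3 of the 9 fits and ended without DMSO replicate 1, DMSO replicate 2, 24 h replicate 1, 24 h replicate 2, 72 h replicate 1 or 72 h replicate 3 (adjusted p = 0.056 to 0.15).

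Receptors of contact guidance were represented by EPHA2 (-0.52 ± 0.10, adjusted p = 0.010) and EPHA4 (-0.90 ± 0.17, adjusted p = 0.012; call ended without DMSO replicate 2 (0.081)), both of which fell, and by the ligand EFNB2 at -0.43, whose call ended without DMSO replicate 2, DMSO replicate 3, 24 h replicate 1, 24 h replicate 2, 72 h replicate 1, 72 h replicate 2 or 72 h replicate 3 (adjusted p = 0.068 to 0.18). The ephrin list had 3 lower of 25 members, or 1 without DMSO replicate 2, and none with 6 samples in the fit. It had 5 higher and 3 lower without 24 h replicate 3, so more members were then higher than lower. Matrix proteases and inhibitors went both ways, with 3 lower and 1 higher of 32, 5 lower and 4 higher without 24 h replicate 3, and 3 and 3 without DMSO replicate 1. The count was 1 and 1 without DMSO replicate 2, 24 h replicate 1 or 24 h replicate 2, or with 6 samples. TIMP3, a matrix-bound inhibitor of metalloproteinases, measured 376, 321 and 296 CPM in DMSO and 207, 197 and 159 CPM at 24 h (-0.82 ± 0.11, adjusted p = 6.8e-04). Treated replicate 3 was again the lowest. The other lower members of the protease list were ADAM19 (-0.73), whose call ended without DMSO replicate 2 (0.060), 24 h replicate 1 (0.061), 24 h replicate 2 (0.057) or 24 h replicate 3 (0.053), and MMP24 (-0.57), whose call held in 1 of the 9 fits, that without 24 h replicate 3, and ended without DMSO replicate 1, DMSO replicate 2, DMSO replicate 3, 24 h replicate 1, 24 h replicate 2, 72 h replicate 1, 72 h replicate 2 or 72 h replicate 3 (adjusted p = 0.060 to 0.25). The higher member was SERPINE2 (0.94).

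Nuclear receptors and hormone-responsive genes had 6 lower and no higher members of 24. By comparison, 1.18% of all genes tested were lower, and 5.11% without 24 h replicate 3. RARB, the retinoic acid receptor beta and a target of retinoic acid, measured 7.03, 7.45 and 9.43 CPM in DMSO and 2.5, 3.04 and 2.49 CPM at 24 h (-1.58 ± 0.25, adjusted p = 0.0038). DIO2, the deiodinase that makes active thyroid hormone, measured 15, 13.2 and 13.7 CPM and 4.37, 5.12 and 5.12 CPM (-1.52 ± 0.15, adjusted p = 8.5e-05). NR2F1, an orphan nuclear receptor, measured 26.5, 24.5 and 27 CPM and 15.6, 13.3 and 12.3 CPM (-0.93 ± 0.12, adjusted p = 6.8e-04). In these 3 genes every treated sample was lower than every DMSO sample, and replicate 3 did not differ in direction. SGK1, a kinase induced by glucocorticoids and serum, measured 45.8, 58.6 and 63.6 CPM and 27.6, 24.7 and 29.1 CPM (-1.04 ± 0.12, adjusted p = 1.6e-04). Without DMSO replicate 1 or 24 h replicate 3 the list had 7 lower and 2 higher members, and with 6 samples in the fit 4 lower ones. GATA6, the cardiac transcription factor, measured 45.4, 50.1 and 49.3 CPM and 33.8, 31.5 and 31.2 CPM (-0.59 ± 0.09, adjusted p = 0.0018). CCDC85A (-1.28 ± 0.19, adjusted p = 0.0024), which was in no list, and SCN9A, the sodium channel of sensory neurons (-0.91 ± 0.14, adjusted p = 0.0033), fell too.

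Outside the NRF2 list the smallest adjusted p of any gene belonged to ENPP2 (autotaxin), the secreted enzyme that makes lysophosphatidic acid. It measured 34.6, 39.2 and 47 CPM in DMSO and 102, 118 and 114 CPM at 24 h. Every treated sample held more than the highest DMSO sample by a wide margin, and the log2 fold change was 1.47 ± 0.10 (adjusted p = 4.0e-06). ANGPT1, the ligand of the receptor TEK, measured 15, 15.9 and 17.7 CPM and 38.6, 50.4 and 46.8 CPM (1.48 ± 0.12, adjusted p = 1.2e-05). TEK itself measured 14.1, 11.6 and 11.9 CPM and 8.85, 9.02 and 10.7 CPM and did not pass the test (-0.39 ± 0.14, adjusted p = 0.22). GPAT3, an acyltransferase of triglyceride synthesis, measured 2.79, 1.87 and 2.27 CPM and 6.11, 7.45 and 7.67 CPM (1.61 ± 0.20, adjusted p = 4.3e-04). SLC12A8, a solute carrier, measured 6.46, 12 and 14.5 CPM and 30, 28.1 and 26.5 CPM (1.35 ± 0.21, adjusted p = 0.0067), with DMSO replicate 1 well below its partners.

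The highest fold change that the naming rule gave was that of a noncoding RNA, LINC00942 (chr12:1500525-1507318). It measured 2.12, 1.25 and 1.89 CPM in DMSO and 7.45, 7.95 and 13.4 CPM at 24 h, with treated replicate 3 highest, and the log2 fold change was 2.46 ± 0.25 (adjusted p = 8.6e-05). Without replicate 3 it was 2.13 ± 0.20. Its promoter is shown because it holds a match to TGACNNNGC, the core of the antioxidant response element that NRF2 binds with small MAF proteins, in capitals at -125 to -117 from the RefSeq start (GRCh38.p14).
LINC00942, chr12:1500241-1500490, + strand: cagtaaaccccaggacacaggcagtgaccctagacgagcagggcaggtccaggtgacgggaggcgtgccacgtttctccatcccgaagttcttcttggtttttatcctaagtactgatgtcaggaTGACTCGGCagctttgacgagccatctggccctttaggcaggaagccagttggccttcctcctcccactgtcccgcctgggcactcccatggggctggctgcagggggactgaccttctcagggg
TGACNNNGC, searched on both strands and able to overlap the AP-1 motif TGANTCA, was in 15 of 81 promoters of genes called higher outside the NRF2 list (18.5%) and in 6 of 29 of the list's called members (20.7%). It was in 12 of 139 promoters of genes called lower (8.63%), 12.3% of promoters of tested genes and 3013 of all 27305 promoters. Such short windows leave out distal elements. The promoters of EDN1, RARB, GPAT3 and SLC12A8, taken by the same rule of extreme fold change, are not printed. They held no match to TGACNNNGC, TGANTCA or TGACGTCA and no CArG box.

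Secreted and matrix proteins among the higher genes included SERPINE2, an inhibitor of thrombin and plasminogen activators, with 142, 128 and 132 CPM in DMSO and 224, 245 and 304 CPM at 24 h (0.94 ± 0.10, adjusted p = 8.6e-05). EFEMP1 (fibulin-3) measured 37.4, 35.8 and 38.4 CPM and 60.5, 58.7 and 57.9 CPM (0.67 ± 0.08, adjusted p = 3.0e-04). CLU, the extracellular chaperone clusterin, measured 35.1, 32.9 and 43.8 CPM and 59.6, 60.8 and 63.7 CPM (0.72 ± 0.10, adjusted p = 9.7e-04). In each of these the groups were clearly apart. The spread within them was small in EFEMP1, whereas in SERPINE2 treated replicate 3 was the highest and in CLU DMSO replicate 3 lay above its partners. COL4A4, a basement membrane collagen chain, measured 2.89, 2.4 and 2.85 CPM and 6.23, 6.28 and 5.85 CPM (1.17 ± 0.18, adjusted p = 0.0027). NDNF, a secreted neurotrophic factor, rose from a low level (1.86, 2.4 and 2.03 CPM) to 4.25, 4.61 and 6.03 CPM (1.25 ± 0.21, adjusted p = 0.0044). C1S, a complement protease, measured 18.1, 23.1 and 27.6 CPM and 70, 77.2 and 39.7 CPM (1.44 ± 0.24, adjusted p = 0.016). In C1S treated replicate 3 was well below replicates 1 and 2, and the call ended without DMSO replicate 2 (0.069) or 24 h replicate 1 (0.077). CTSL, the lysosomal protease cathepsin L, measured 74, 49.4 and 64.6 CPM and 117, 118 and 154 CPM (1.05 ± 0.14, adjusted p = 0.0012).

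Further higher genes of the rule were SEL1L3 (1.23 ± 0.17), PLEKHF1 (1.20 ± 0.20), UNKL (0.69 ± 0.08) and KCNAB2, a potassium channel subunit (0.57 ± 0.10), each called in all 9 fits, with adjusted p from 4.0e-04 to 0.0088. MSC, the transcription factor musculin, measured 9.56, 4.43 and 4.16 CPM in DMSO and 13.6, 12.4 and 18.7 CPM at 24 h (1.31 ± 0.28, adjusted p = 0.035), but DMSO replicate 1 was high, and the call ended without DMSO replicate 2, DMSO replicate 3, 24 h replicate 1, 72 h replicate 1, 72 h replicate 2 or 72 h replicate 3 (adjusted p = 0.066 to 0.14). NOTCH3 (0.83 ± 0.15, adjusted p = 0.0092) was called except without DMSO replicate 3 (0.054), SLC6A6, the taurine transporter (1.01 ± 0.16, adjusted p = 0.0085), except without DMSO replicate 2 (0.060), and PTGS1, cyclooxygenase 1 (1.51 ± 0.29, adjusted p = 0.013), except without 24 h replicate 2 (0.050). FTLP3 (1.18 ± 0.23, adjusted p = 0.014) is a pseudogene of ferritin light chain, itself an NRF2 target, and reads of the 2 cannot be told apart with certainty. Its call ended without DMSO replicate 2 (0.080), DMSO replicate 3 (0.052) or 24 h replicate 1 (0.052). FBXW10, with no read in DMSO and 0.757, 1.06 and 0.183 CPM at 24 h, was called at a level too low for a fold, and the call ended without DMSO replicate 2 (0.080), DMSO replicate 3 (0.063) or 24 h replicate 2 (0.063); it was named after its values were seen.

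**Figure D3:**
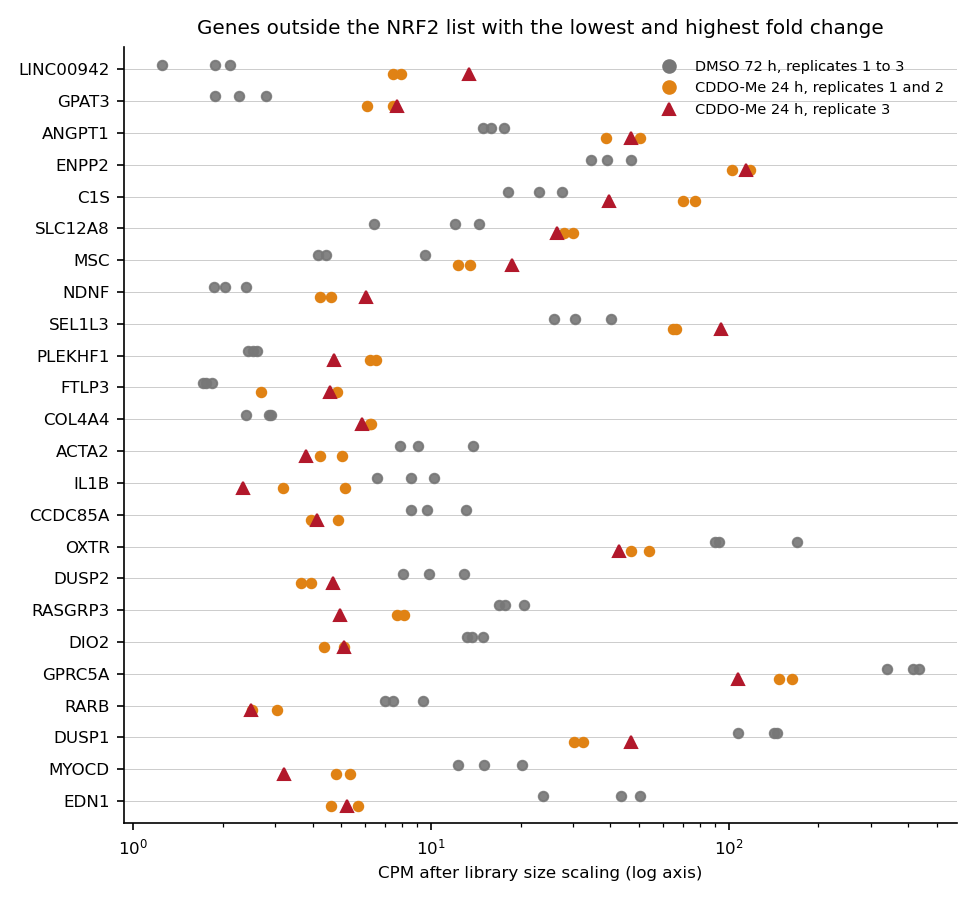
CPM (log axis) in each sample for the 12 genes with the highest and the 12 with the lowest log2 fold change outside the NRF2 list, among called genes with an average log2 CPM of at least 2 and groups apart. Grey circles are the 3 DMSO samples, orange circles CDDO-Me 24 h replicates 1 and 2, and red triangles replicate 3, which in C1S lies between the groups and in LINC00942 beyond the others.

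Genes of amino acid stress formed the list outside the NRF2 targets with the most higher members, 6 of 40 with none lower. Among all genes tested 0.969% were higher, and 5.71% without 24 h replicate 3. CEBPB, a transcription factor of this response and of inflammation, measured 115, 132 and 123 CPM in DMSO and 225, 198 and 225 CPM at 24 h (0.81 ± 0.08, adjusted p = 7.8e-05). SESN2, the leucine sensor that restrains mTORC1, measured 35.3, 34.7 and 35 CPM and 50.9, 49.1 and 50.3 CPM (0.52 ± 0.08, adjusted p = 0.0027). Both had their 3 treated samples close together. CHAC1, an enzyme that degrades glutathione, measured 13.3, 14.1 and 14.7 CPM and 31.1, 23.5 and 17.5 CPM (0.77 ± 0.17, adjusted p = 0.031), with replicate 3 only just above DMSO, and its call ended without DMSO replicate 1, DMSO replicate 2, DMSO replicate 3, 24 h replicate 1, 24 h replicate 2, 72 h replicate 2 or 72 h replicate 3 (adjusted p = 0.055 to 0.14). SLC1A5, the glutamine transporter, had a log2 fold change of 0.39 ± 0.08 (adjusted p = 0.013), which ended without DMSO replicate 2 (0.064), DMSO replicate 3 (0.058), 24 h replicate 1 (0.050) or 24 h replicate 2 (0.054). The list's count was 3 without 72 h replicate 3, 2 without DMSO replicate 2, 24 h replicates 1 or 2, or with 6 samples in the fit, and 20 with 1 lower without 24 h replicate 3.

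Metabolic lists had few calls with all samples. The shares of all genes tested were 0.969% higher and 1.18% lower. Without 24 h replicate 3 they were 5.71% and 5.11%. FADS1, a fatty acid desaturase (0.52 ± 0.11, adjusted p = 0.017; ended without DMSO replicate 2 (0.089), DMSO replicate 3 (0.082), 24 h replicate 1 (0.065) or 24 h replicate 2 (0.090)), was higher and PLIN2, the coat protein of lipid droplets (-0.33; held in 2 of 9 fits), was lower among 35 lipid genes, with 12 higher and 3 lower without replicate 3. SLC2A1, the glucose transporter GLUT1, measured 214, 222 and 222 CPM and 319.9, 318 and 264 CPM (0.46 ± 0.08, adjusted p = 0.0074), and the related SLC2A3 had a log2 fold change of 0.41 ± 0.09 (adjusted p = 0.022; ended without DMSO replicate 1 (0.065), DMSO replicate 2 (0.099) or 72 h replicate 3 (0.054)). These were 2 of 40 glycolysis and hypoxia genes, and 11 were higher and 2 lower without replicate 3.

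In 20 of the 55 lists with at least 5 tested members, the median had 1 sign in treated replicates 1 and 2 and the other in replicate 3; in 25 lists it had the same sign in all 3. Collagens had medians of 0.30, 0.30 and -0.22 in replicates 1 to 3, with 1 of 26 higher with all samples and 10 without replicate 3. Interferon-stimulated and antigen presentation genes had medians of 0.34, 0.32 and -0.24, with 1 of 32 higher (TAP2, 0.42, held in 3 of 9 fits) and 12 without replicate 3. Nuclear-retained and histone RNA had medians of 0.35, 0.39 and -0.18, with none called and 6 higher without replicate 3. This list was chosen as a possible mark of unprocessed or non-polyadenylated RNA in a library, which was not measured here. These 3 lists were high in replicates 1 and 2 and low in replicate 3 together, and the part that RNA content of the libraries had in the collagen and interferon values was not tested. The contractile, immediate early and TGF-beta lists kept a negative median in all 3 replicates.

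**Figure D4:**
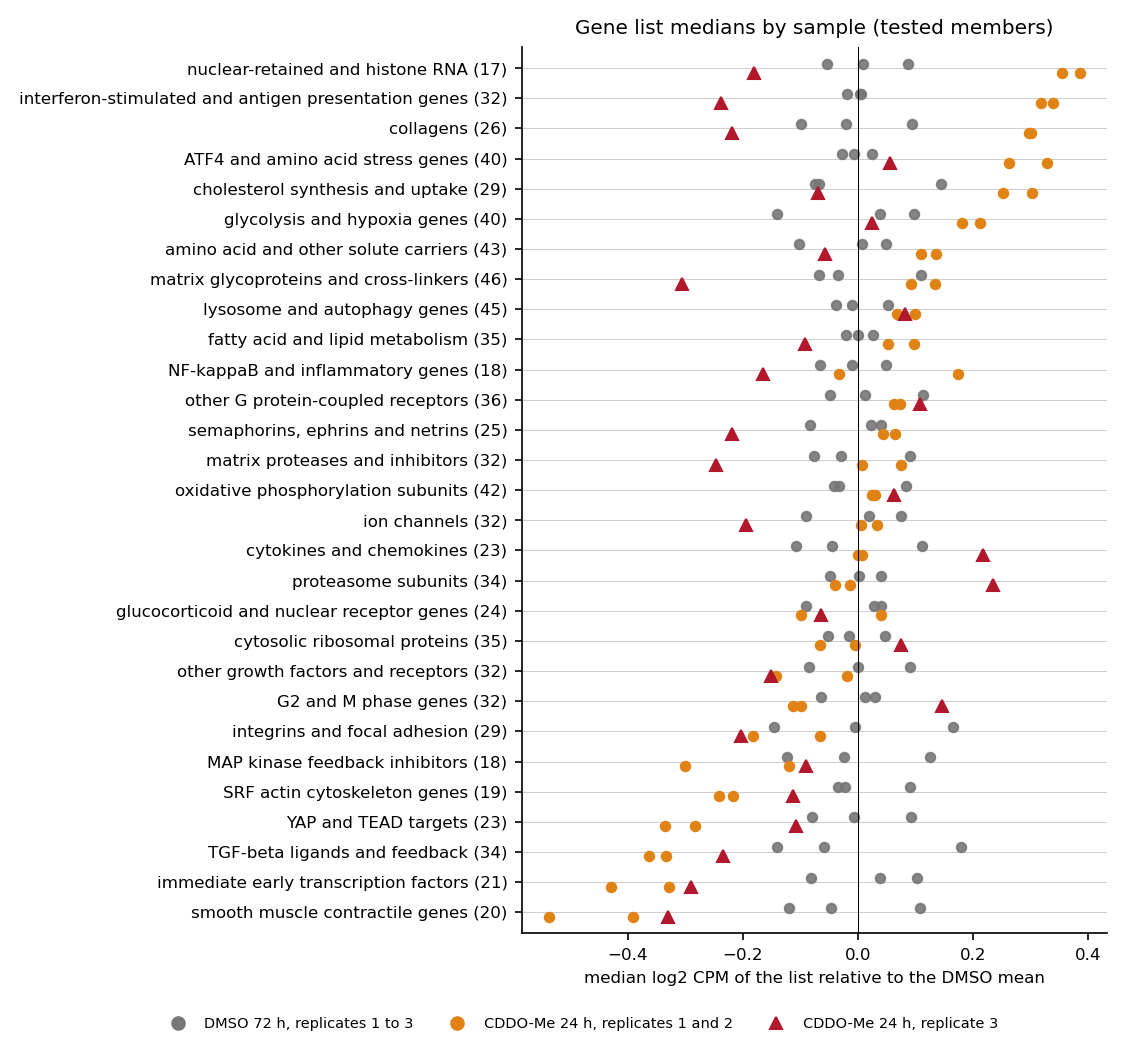
Median log2 CPM of the tested members of each gene list (number in parentheses), relative to the mean of the DMSO samples, in each sample; lists are those of 8 or more tested members with at least 3 calls, or at least 6 without CDDO-Me 24 h replicate 3, plus 3 housekeeping lists, and the NRF2 list is left out. Grey circles are DMSO, orange circles CDDO-Me 24 h replicates 1 and 2, red triangles replicate 3; the triangle sits left of 0 in the top 3 lists, where the orange points are right of 0, and with the orange points in the smooth muscle list.

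Several lists of core machinery held no called gene. Of all genes tested 2.15% were called with all samples, so few calls or none in lists of this size lie near that share in that fit. None of 42 oxidative phosphorylation subunits, 35 cytosolic ribosomal proteins, 34 proteasome subunits, 23 endoplasmic reticulum chaperones, 27 ribosome biogenesis genes or 32 genes of G2 and M phase passed the test by edgeR with all samples. Without 24 h replicate 3 the first 2 lists still had none, the proteasome and chaperone lists had 1 lower each, ribosome biogenesis 5 lower and G2 and M phase 7 lower. In that fit 5.11% of all genes were lower, and 5 of 27 and 7 of 32 lay above that share. Of 32 S phase genes 1 was higher, which held without DMSO replicate 2 or 24 h replicate 3 and in no other fit leaving out 1 sample. Of 23 cytosolic heat shock proteins 1 was higher. Without 24 h replicate 3 these 2 lists had 1 higher each, with 1 and 4 lower, and 4 of 23 likewise lay above 5.11%. ATP5F1B, the catalytic subunit of ATP synthase, measured 825, 804 and 895 CPM in DMSO and 829, 802 and 889 CPM at 24 h, and RPS2, a ribosomal protein, measured 1979, 1943 and 1873 CPM and 1986, 1799 and 1975 CPM. The standard errors of their log2 fold changes were 0.07 and 0.08. PSMD2, a proteasome subunit, measured 835, 755 and 754 CPM and 727, 676 and 974 CPM, with replicate 3 above all the others. ANLN, a cytokinesis protein, measured 869, 793 and 819 CPM and 544, 629 and 868 CPM; it was lower in replicates 1 and 2 only, and without replicate 3 its log2 fold change was -0.50 ± 0.07 (adjusted p = 2.1e-04). None of 18 NF-kappaB and inflammatory genes was called, with 5 higher and 1 lower without replicate 3 and 1 lower without 24 h replicate 2.

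Several genes differed strongly between replicates 1 and 2 on 1 side and replicate 3 on the other, and for these the group mean describes no sample. DDIT4 (REDD1), an inhibitor of mTORC1 induced by stress, measured 15.5, 15.1 and 16.1 CPM in DMSO and 79.6, 73 and 22.9 CPM at 24 h. Replicates 1 and 2 were far above DMSO and replicate 3 above it by much less, so the gene was not called (1.90 ± 0.43, adjusted p = 0.091), whereas without replicate 3 it was (2.29 ± 0.10, adjusted p = 4.5e-11). SREBF1, the transcription factor of lipid synthesis, measured 82.3, 145 and 131 CPM and 249, 228 and 54.8 CPM. NEAT1, a nuclear-retained noncoding RNA, measured 88.3, 58.7 and 46.5 CPM and 126, 139 and 30.6 CPM. Both were above all DMSO samples in replicates 1 and 2 and below all of them in replicate 3. DCN, the matrix proteoglycan decorin, measured 14.5, 34.5 and 45 CPM and 66.3, 71.2 and 17.3 CPM, with DMSO replicate 1 low as well.

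In other genes replicate 3 was the high one. HKDC1, a hexokinase family member, measured 1.65, 1.72 and 2.13 CPM in DMSO and 6.35, 6.23 and 30.2 CPM at 24 h. SPP1 (osteopontin) measured 1.76, 1.56 and 1.6 CPM and 2.74, 3.6 and 14.9 CPM, and HTRA3, a secreted protease, 0.879, 1.2 and 1.21 CPM and 2.45, 2.94 and 10.9 CPM. In these 3 genes all treated samples were above DMSO, but replicate 3 by far the most, and none was called with all samples (adjusted p = 0.12, 0.19 and 0.094). Without replicate 3 their log2 fold changes were 1.77 ± 0.19, 0.95 ± 0.22 and 1.29 ± 0.24 (adjusted p = 1.1e-05, 0.010 and 0.0020). The inhibitors of differentiation ID1 and ID3, targets of BMP signalling, measured 106, 27.8 and 36.6 CPM and 210.3, 64 and 57.6 CPM in DMSO, in which replicate 1 was high, and 13.7, 14.4 and 81.9 CPM and 38.7, 37.3 and 126 CPM at 24 h. HMOX1, heme oxygenase 1 and an NRF2 target, measured 22.1, 23.6 and 25.8 CPM and 146, 146 and 645 CPM; it was higher in all 3, but its spread left it uncalled (adjusted p = 0.056).

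HBEGF, an EGF receptor ligand, measured 53.4, 45.6 and 50 CPM in DMSO and 21.9, 19.7 and 44.5 CPM at 24 h, and FGF5 115, 109 and 91.6 CPM and 43, 45.3 and 80.2 CPM. In both, replicates 1 and 2 were less than all DMSO samples by a wide margin and replicate 3 by little, and the log2 fold changes without replicate 3 were -1.26 ± 0.10 and -1.26 ± 0.09 (adjusted p = 1.2e-07 and 9.5e-08). Among the 8304 genes with an average log2 CPM of at least 4, replicate 3 was over 1 log2 unit above the mean of replicates 1 and 2 in 35 and below it in 69. In 35 of the 35 and 68 of the 69 it was nearer to the mean of the CDDO-Me 72 h samples than to that of replicates 1 and 2, and in 20 and 59 nearer to the DMSO mean. These genes were picked for the distance of replicate 3 from replicates 1 and 2. That choice favours another mean being nearer, so no conclusion is drawn from these counts. In HMOX1 the 72 h samples measured 822, 747 and 880.1 CPM, in SREBF1 55.9, 59.3 and 56.8 CPM and in NEAT1 44.1, 36.2 and 36.8 CPM.

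**Figure D5:**
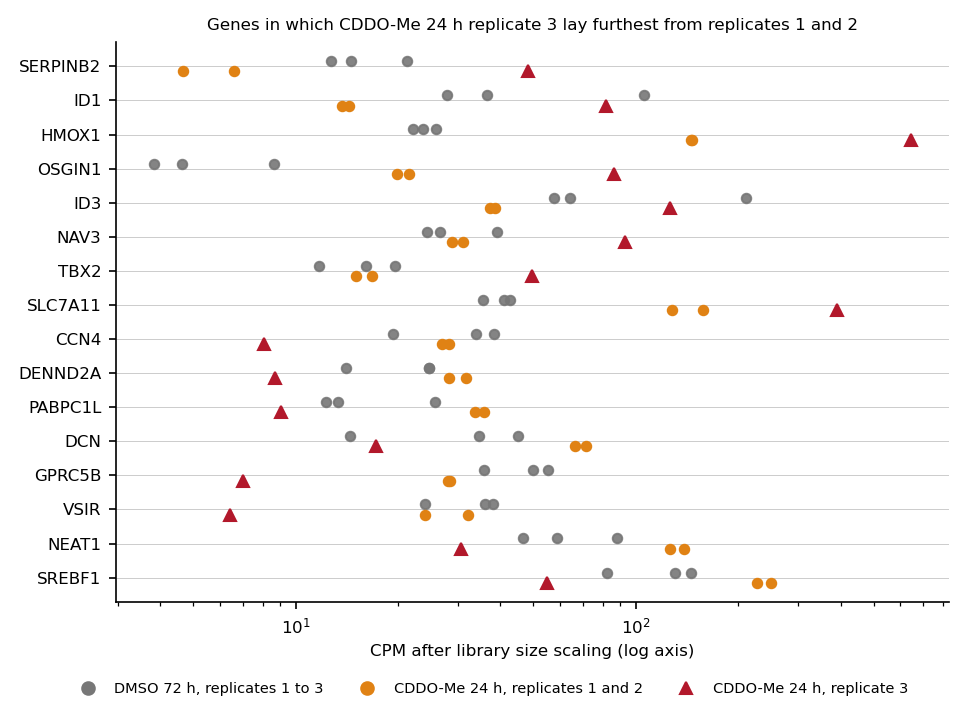
CPM (log axis) in each sample for the 16 genes, 8 in each direction, in which CDDO-Me 24 h replicate 3 (red triangles) lay furthest from replicates 1 and 2 (orange circles), among genes with an average log2 CPM of at least 4; grey circles are the DMSO samples. From CCN4 down the triangle lies left of the orange points, in SREBF1 and NEAT1 also left of all grey ones.

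The CDDO-Me 72 h samples share the vehicle group with the comparison above, so their values are set beside it only as levels. DUSP1 measured 124, 129.8 and 125 CPM at 72 h, CCN1 1879, 1855 and 1866 CPM and JUN 363, 361 and 374 CPM, all within the range of the DMSO samples. KLF6, at 246, 247 and 253 CPM, lay above every DMSO sample. EDN1, at 19.4, 18.8 and 20.8 CPM, lay between the 24 h and DMSO samples. MYOCD, at 2.66, 2.23 and 2.78 CPM, GPRC5A, at 143, 139 and 128 CPM, and RGS4, at 119.9, 111 and 118 CPM, were as low at 72 h as at 24 h or lower. ENPP2 was higher than at 24 h, at 190.5, 191 and 184 CPM, and so was SEL1L3, at 129, 138 and 136 CPM. LINC00942 (10.2, 11.6 and 10.3 CPM) and GPAT3 (6.54, 7.64 and 6.41 CPM) were in the range of the 24 h samples. Differences between the 2 times were not tested here.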

How the data were processed

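RNA of 9 AC16 samples was sequenced from unstranded, polyA-selected TruSeq v2 libraries, per the labels' protocols. The authors deposited whole-number read counts per Ensembl gene, not normalized; the submitters' processing notes list STAR, SAMtools, Subread and featureCounts with the builds hg38 and GRCh38. Counting settings: not given in the sources used here. Titles and design text write CDDO in places for CDDO-Me, and the treatment label was followed.

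Columns were matched to samples by name, and reads of overlapping, antisense or near-identical genes cannot be separated. Of 58299 genes, 14965 passed filterByExpr and held 99.87 to 99.9% of each sample's counts. They were tested with edgeR 4.0.16 in R 4.3.3 (robust quasi-likelihood, TMM scaling, 9 samples, 6 residual degrees of freedom, common coefficient of variation 11.5%), as CDDO-Me 24 h minus DMSO, with Benjamini-Hochberg adjustment and a threshold of 0.05. SE is the size of a log2 change divided by the root of its F statistic. CPM are scaled by TMM library sizes. A count of 0 allows up to 3 counts, or 0.107 to 0.178 CPM, for counting error only. The fit was tested on simulated counts.

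Members and 56 gene lists were chosen with earlier results of these data known. Named genes were, outside the NRF2 list, the 12 with the highest and 12 with the lowest fold change and the 8 with the smallest adjusted p in each direction (called, average log2 CPM of at least 2, groups apart), up to 4 called members per list or its most abundant member, the 8 per direction in which 24 h replicate 3 differed most (average log2 CPM of at least 4), and up to 10 per direction called without it but not with all samples. Promoters came from a RefSeq table (GRCh38.p14) that matched 10983 tested genes by name; gene coordinates are those of the deposited table. One gene that this rule names is not reported here. Alternatives were other size factors, DESeq2 1.42.0, limma 3.58.1 voom with sample weights, other filters, 6 samples, a replicate block and leaving samples out.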

Additional observations from a re-analysis of the deposited data

How the results depend on the processing

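The number of called genes depended on the samples and the test more than on scaling. Counts of higher and lower genes, 145 and 176 in the reported fit, were 242 and 287 by DESeq2, 855 and 785 by voom with sample weights (which gave 24 h replicate 3 a weight of 0.15), 306 and 356 with no filter on low counts, 43 and 57 with 6 samples in the fit, and 1825 and 1639 without both 24 h replicate 3 and DMSO replicate 1. Outside the NRF2 list the higher genes, 110 in the reported fit, numbered 195, 803, 268, 27 and 1772 in the same order, and the lower counts were those already given, since no list member was called lower. Leaving out 1 sample gave 57 to 874 higher and 77 to 783 lower genes, and 39 to 826 higher genes outside the list, the lowest without DMSO replicate 2 and the highest without 24 h replicate 3. DESeq2's size factors in edgeR and a filter of 1 CPM in 6 samples kept all counts within 1.5 times.

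The deviations of same-numbered samples had correlations of -0.03 to 0.08, and the numbers were not taken as pairs in the reported fit. Between DMSO and 24 h these were 0.079, 0.021 and 0.082 for replicates 1 to 3. Other pairs between DMSO and 24 h ran from -0.109 to 0.019. Whether the numbers mark pairs was not tested. Between DMSO and 24 h every sample correlated best with its own number, whereas with the 72 h samples included not every sample did. With a replicate block 35 genes were higher and 51 lower, 21 of the higher ones outside the list. None of the 147 named genes that was called changed direction under any alternative run. Called genes outside the list all had groups that did not overlap, so this could hardly have come out otherwise and lends no support. The replicate block ended the call of 53 named genes, the fit of 6 samples of 46, and leaving out DMSO replicate 2 of 36, while leaving out 24 h replicate 3 ended 2 and added 32. The cause of these changes was not tested. Depth limits the genes under about 1 CPM, where a few reads decide the value.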

Other observations

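Some genes outside all lists were picked for description after their values had been seen. GPC1, the heparan sulphate proteoglycan glypican 1, measured 197, 162 and 163 CPM in DMSO and 338, 314 and 502 CPM at 24 h (log2 fold change 1.14 ± 0.15, edgeR adjusted p = 0.0022), with treated replicate 3 highest. LRP8, the receptor of reelin and apolipoprotein E, measured 69.1, 48.9 and 51 CPM and 98.2, 98.4 and 107 CPM (0.85 ± 0.11, adjusted p = 7.3e-04). FADS3, of the fatty acid desaturase family, measured 93.4, 64.8 and 76.2 CPM and 142, 144 and 126 CPM (0.81 ± 0.11, adjusted p = 8.6e-04). All 3 treated samples were higher than every DMSO sample in these genes. POR, the reductase that passes electrons to cytochromes P450, measured 70.7, 64.7 and 61.7 CPM and 91.2, 91.1 and 95.2 CPM (0.49 ± 0.07, adjusted p = 0.0024).

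Among the lower genes in no list, CITED2, a transcriptional coregulator that binds CBP and p300, measured 368, 516 and 538 CPM in DMSO and 271, 241 and 275 CPM at 24 h (-0.85 ± 0.12, adjusted p = 0.0013). CDH11, a mesenchymal cadherin, measured 36.3, 24.3 and 25.4 CPM and 14.8, 14.6 and 15.5 CPM (-0.93 ± 0.14, adjusted p = 0.0024). VGLL3, a cofactor of TEAD factors that the YAP and TEAD list does not hold, measured 259, 366 and 304 CPM and 185, 189 and 184 CPM (-0.73 ± 0.10, adjusted p = 0.0011). In all 3 the treated samples lay close together below DMSO. CD274, which encodes the immune checkpoint ligand PD-L1, measured 15.4, 10.7 and 11.4 CPM and 8.27, 7.45 and 7.35 CPM (-0.70 ± 0.15, adjusted p = 0.026), and its call ended without DMSO replicate 1, 24 h replicate 2, 72 h replicate 1, 72 h replicate 2 or 72 h replicate 3 (adjusted p = 0.053 to 0.091). The other genes of these paragraphs were called in all 9 fits that left out 1 sample.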
